A study of Homo sapiens with 18 samples.

Results

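Namalwa and Jiyoye are established Burkitt lymphoma lines that both carry Epstein-Barr virus (EBV), and their transcriptomes were set side by side at baseline, in cells that had received only a scrambled short hairpin RNA (shRNA). The comparison used 6 of the 18 libraries, 3 from each line, and 14933 genes that the tables of both lines list, out of 17219 genes listed in at least 1 of them. Of the 14933 genes, 11831 (79.2%) had a mean of the 2 lines of at least 1 part per 1000000 (ppm) and were compared, and 3102 lay under that level. The study knocked down the transcription factor FOXO3 in 3 such lines, the third being BL-41, and profiled messenger RNA enriched with oligo-dT. Cells of every group were grown in RPMI1640 with serum and were transduced with the lentiviral vector pRSI12-U6-shUbiC-TagRFP, and infected cells were sorted on day 4. The 2 groups compared here carried the scrambled hairpin in Namalwa and in Jiyoye, the FOXO3 hairpin arms of the same lines are given beside them as separate libraries, and the scrambled arm of BL-41, a line known to lack EBV, serves as another point of reference. The labels do not give EBV status, and the tables analysed here hold human genes only, so that no viral transcript was measured.

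Burkitt lymphoma arises from B cells of the germinal centre, the site where B cells divide fast and mutate their antibody genes, and it carries a MYC gene placed under immunoglobulin control. In most EBV-positive Burkitt tumours the virus expresses few proteins, and the cell keeps the surface and transcription factor pattern of a germinal centre B cell. When the virus expresses its full growth programme, EBNA2 and LMP1 switch on host genes of activated B cells, among them adhesion molecules, chemokines, NF-kB targets and antigen presentation genes, and some Burkitt lines drift towards that state in culture. Each line is a single tumour's descendant, so a difference between the lines is a difference between 2 cultures and the parts of the virus, the tumour and the time in culture in it cannot be told apart.

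Each arm of each line has 1 deposited value per gene, made from its 3 libraries, which was scaled here to a sum of 1000000 over the table. A difference is log2(Namalwa + 0.5) minus log2(Jiyoye + 0.5), with values in ppm, so that positive values mean higher in Namalwa, and the added 0.5 understates the difference of genes near 0 in one line. With no value per library, no test between the lines was possible, and a gene was counted where the difference reached 2-fold or 8-fold. The ± after a difference is an approximate standard error recovered from the authors' comparison within each line (median 0.150 on the log2 scale over the compared genes). It covers the spread of the 3 libraries of an arm, which may be technical, and no spread between independent cultures of a line. The tables of the lines were normalized separately, nothing used here says whether the lines were processed together, and line and processing batch cannot be told apart. In such bulk samples, fewer cells expressing a gene and less RNA per cell cannot be told apart either. The scrambled arms summed to 18108400 deposited units in Namalwa and 17065800 in Jiyoye, so that 3 reads over an arm correspond to 0.0552 and 0.0586 ppm, a level under which values are not read as expression.

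The regulatory sequences most used in describing these programmes are shown first. The NF-kB consensus, 2 half-sites of the interferon response element (GAAANNGAAA) and the Y box bound by NF-Y in class II genes (TGATTGG) were searched on both strands of the 250 bases before the start of each gene, in RefSeq promoters of GRCh38.p14. TNFAIP3 (chr6:137867009-137867258, plus strand), CCL22 (chr16:57358533-57358782, plus strand) and BIRC3 (chr11:102317234-102317483, plus strand) are shown as genes higher in Jiyoye that hold NF-kB matches. IFI44L (chr1:78620198-78620447, plus strand) and IFIT1 (chr10:89392373-89392622, plus strand) are shown as interferon-stimulated genes higher in Namalwa, and HLA-DQB1 (chr6:32666658-32666907, minus strand) as a class II gene higher in Jiyoye. Each sequence runs 5′ to 3′ on the gene's strand and ends at the last base before the start, and capitals mark the matches.
TNFAIP3: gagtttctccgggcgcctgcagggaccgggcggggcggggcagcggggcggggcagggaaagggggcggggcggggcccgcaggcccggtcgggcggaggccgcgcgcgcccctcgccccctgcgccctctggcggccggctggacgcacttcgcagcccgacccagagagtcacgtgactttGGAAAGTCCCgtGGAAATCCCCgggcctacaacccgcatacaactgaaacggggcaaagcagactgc
CCL22: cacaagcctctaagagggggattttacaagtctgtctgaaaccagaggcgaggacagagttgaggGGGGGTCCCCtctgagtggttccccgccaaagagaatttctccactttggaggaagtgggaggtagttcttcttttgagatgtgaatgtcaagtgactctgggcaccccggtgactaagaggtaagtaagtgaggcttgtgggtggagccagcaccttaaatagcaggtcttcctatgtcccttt
BIRC3: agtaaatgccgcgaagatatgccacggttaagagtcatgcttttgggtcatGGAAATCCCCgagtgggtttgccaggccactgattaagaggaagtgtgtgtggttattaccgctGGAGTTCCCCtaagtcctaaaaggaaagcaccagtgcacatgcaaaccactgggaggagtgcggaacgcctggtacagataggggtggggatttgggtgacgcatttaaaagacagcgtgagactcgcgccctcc
IFI44L: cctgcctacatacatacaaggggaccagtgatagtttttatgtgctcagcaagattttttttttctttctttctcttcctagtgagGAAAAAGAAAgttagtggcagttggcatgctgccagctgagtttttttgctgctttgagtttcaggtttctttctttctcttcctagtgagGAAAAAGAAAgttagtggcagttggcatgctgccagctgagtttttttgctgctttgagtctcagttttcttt
IFIT1: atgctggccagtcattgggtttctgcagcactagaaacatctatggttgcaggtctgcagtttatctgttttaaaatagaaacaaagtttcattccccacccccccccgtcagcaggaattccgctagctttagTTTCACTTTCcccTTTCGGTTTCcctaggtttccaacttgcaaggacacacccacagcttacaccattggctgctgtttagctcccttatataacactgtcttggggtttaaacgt
HLA-DQB1: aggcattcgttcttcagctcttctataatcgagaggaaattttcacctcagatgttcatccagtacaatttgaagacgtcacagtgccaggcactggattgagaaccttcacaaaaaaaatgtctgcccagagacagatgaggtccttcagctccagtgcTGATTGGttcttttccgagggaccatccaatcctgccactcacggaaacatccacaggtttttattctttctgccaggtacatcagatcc
TNFAIP3 held 2 matches that begin 67 and 55 bases before the start, BIRC3 2 at 199 and 135 bases, and CCL22 1 at 185 bases. The IFI44L promoter held the interferon half-sites at 164 and 73 bases, and IFIT1 at 116 and 103 bases. HLA-DQB1 held the Y box 90 bases before its start.

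The lines differed widely. Of the 11831 genes, 1637 (13.8%) were at least 2-fold higher in Namalwa and 2207 (18.7%) at least 2-fold higher in Jiyoye, and these shares are the background for every gene list below. Both directions together made 3844 genes (32.5%), so most genes were within 2-fold. At 8-fold, 336 (2.84%) were higher in Namalwa and 598 (5.05%) in Jiyoye. The median difference over all compared genes was -0.01, the quartiles were -0.71 and 0.57, and the range ran from -10.58 to 9.45. Of 11770 genes also listed for BL-41, the level in BL-41 was nearer to Namalwa for 6744 (57.3%). Pearson's r of the log2 levels over these genes, as a description of 3 profiles, was 0.731 between Namalwa and Jiyoye, 0.883 between BL-41 and Namalwa and 0.764 between BL-41 and Jiyoye.

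**Figure D1:**
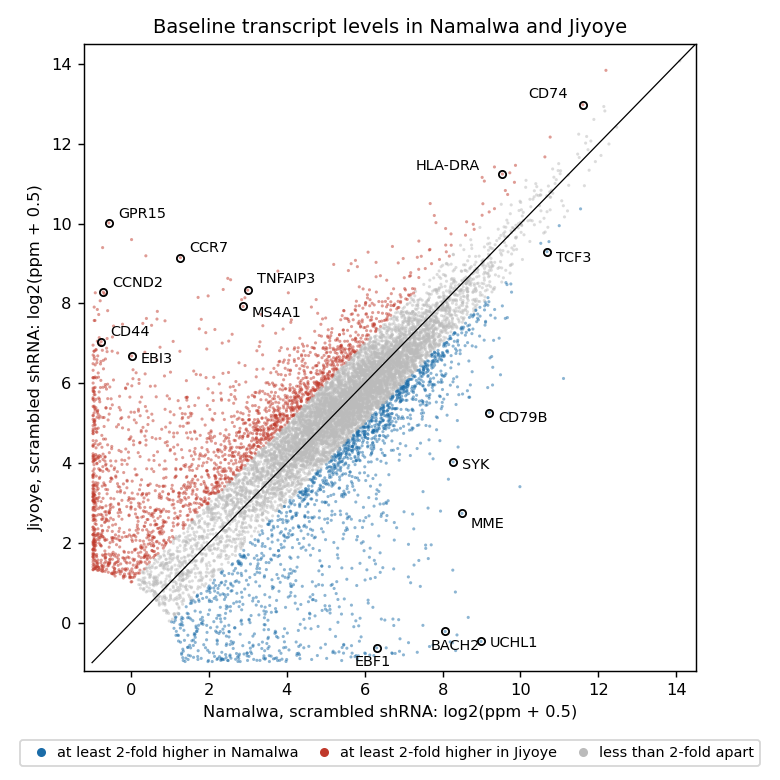
Level of each compared gene in Namalwa (x axis) and Jiyoye (y axis) as log2 of the ppm value plus 0.5, scrambled arms, 1 pooled value per arm. Blue points are the genes at least 2-fold higher in Namalwa (13.8%), red points those at least 2-fold higher in Jiyoye (18.7%), the line marks equal levels, and labelled circles are genes described in the text. Genes near 0 in one line form the bands along the lower and left edges. A few genes not reported here are left out.

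The line difference was much the same in the FOXO3 hairpin arms, which are other libraries of the same lines. Of the 1637 genes higher in Namalwa, 1392 (85.0%) again differed at least 2-fold in that direction, and of the 2207 higher in Jiyoye, 1974 (89.4%) did. All 336 and all 598 genes past 8-fold stayed at least 2-fold apart in the same direction. Pearson's r between the differences of both arms was 0.979, a value that the authors' moderation, which draws the arms of a line together, also raises. FOXO3 itself stood at 46.97 ppm in Namalwa and 27.6 in Jiyoye in the scrambled arms, less than 2-fold apart (difference 0.76 ± 0.16), and at 21.7 and 22.2 in the hairpin arms. The authors' deposited table gives a log2 fold change of FOXO3 with the hairpin of -1.09 (adjusted p = 2.49e-09, DESeq2) in Namalwa and of -0.30 (adjusted p = 0.187) in Jiyoye, so that the knockdown did not pass the authors' test in Jiyoye.

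**Figure D2:**
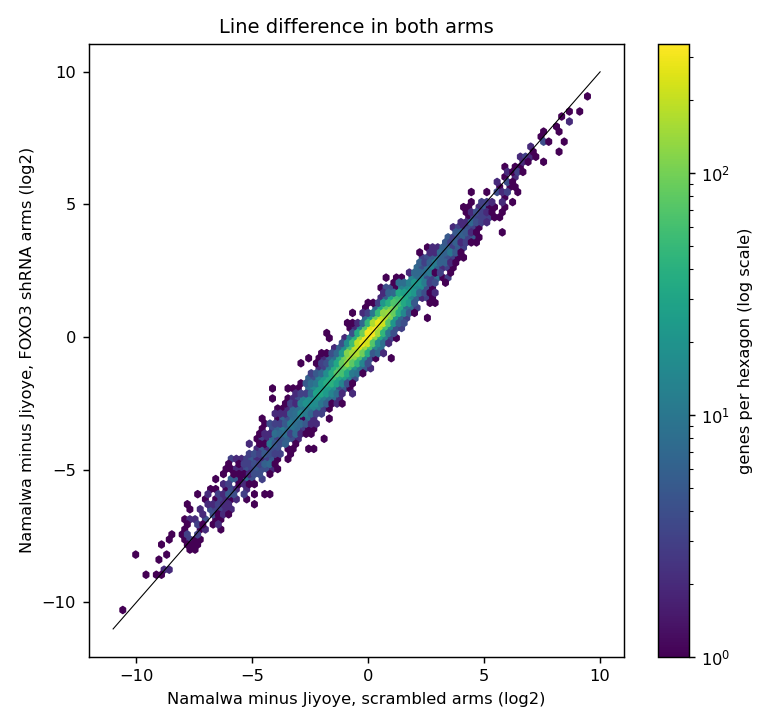
Difference between Namalwa and Jiyoye (log2) in the scrambled arms (x axis) and in the FOXO3 hairpin arms (y axis). Each hexagon is coloured by its number of genes on a log scale, the line marks equality, and the points follow it over the whole range (r = 0.979).

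Both lines expressed the genes that define a B cell, at unequal levels. PAX5, the factor that holds B cell identity, stood at 449.7 ppm in Namalwa and 274 in Jiyoye, less than 2-fold apart (difference 0.71 ± 0.11). POU2AF1, a B cell coactivator of octamer factors, was alike (430.1 ppm in Namalwa and 426 in Jiyoye, difference 0.01 ± 0.13). JCHAIN, which joins antibody subunits, stood at 1643 ppm in Namalwa and 1258 in Jiyoye. The markers of other cell types were mostly low. Summed over the kept members of each list, the 7 T cell markers reached 33.3 ppm in Namalwa and 55.3 in Jiyoye, the 3 NK and cytotoxic markers 60.8 and 52.9, and the 11 myeloid markers 71.7 and 65.1. CD3E, a T cell marker, stood at 0.05999 ppm in Namalwa and 2.001 in Jiyoye. CD14, a monocyte marker under the filter, stood at 0.192 ppm in Namalwa and 0.331 in Jiyoye. Of the erythroid markers HBB, adult beta-globin, was under the level of 3 reads in both lines. The embryonic globin HBE1, which is in no list and was chosen after its values were seen, was under that level in Namalwa and at 95.8 ppm in Jiyoye and 18.8 in BL-41. KLRK1, an NK receptor, was higher in Namalwa (58.5 ppm in Namalwa and 0.581 in Jiyoye), and PRF1, the pore protein perforin of cytotoxic cells, in Jiyoye (0.316 ppm in Namalwa and 50.5 in Jiyoye). Of the T cell markers 5 were at least 2-fold higher in Jiyoye and 1 in Namalwa, and of the myeloid markers 3 and 3. The 5 of 14 stromal and epithelial markers that passed the filter were all at least 2-fold higher in Jiyoye, with a sum of 12.9 ppm in Namalwa and 243 in Jiyoye. KRT8, a keratin of simple epithelia, made up most of the sum in Jiyoye (0.942 ppm in Namalwa and 175 in Jiyoye), whereas EPCAM, an epithelial surface protein, was at 0.00891 ppm in Namalwa and 0.103 in Jiyoye. A gene near 0 in 1 line passes the filter only by being high in the other, so these counts are a description. The part that such markers play in the differences below was not tested.

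The 12 most negative differences belonged to genes well expressed in Jiyoye that Namalwa hardly expressed. GPR15, a receptor that directs lymphocytes to the colon, gave the most negative difference of all, -10.58 ± 0.28, from 0.175 ppm in Namalwa and 1035 in Jiyoye, and 0.136 and 793 in the hairpin arms. CCND2, which encodes cyclin D2, stood at 0.1101 ppm in Namalwa and 311 in Jiyoye (difference -9.00 ± 0.27). MARCKS, an actin-binding substrate of protein kinase C, stood at 0.0776 ppm in Namalwa and 267 in Jiyoye, and PLS3, an actin-bundling plastin, at 0.122 ppm in Namalwa and 303 in Jiyoye. These genes were close to silent in Namalwa and well expressed in Jiyoye in both arms. SULF2, a sulfatase that trims heparan sulfate, was at 0.802 ppm in Namalwa and 585 in Jiyoye, and HECW2, a ubiquitin ligase, at 0.5098 ppm in Namalwa and 775 in Jiyoye. MACROD2 was at 0.103 ppm in Namalwa and 674 in Jiyoye in the scrambled arms but at 0.0974 and 181 in the hairpin arms, so its level in Jiyoye differed between arms. MYO10, BNC2, ANKRD30A and AKR1C1 were under the level of 3 reads in Namalwa and stood at 239.7, 307, 230.0 and 189.7 ppm in Jiyoye. AKR1C1, a steroid reductase, has near-identical paralogs among which reads can be split, so its own share is uncertain. HLA-DRB3 completes the 12 genes and is described with class II below.

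At the other end stood 12 genes that Jiyoye hardly expressed. UCHL1, a deubiquitinase abundant in neurons and in germinal centre B cells (chr4:41256928-41268455), gave the highest difference, 9.45 ± 0.39, from 507 ppm in Namalwa and 0.223 in Jiyoye, with 507 and 0.441 in the hairpin arms and 245 in BL-41. BACH2, a repressor that holds B cells back from the plasma cell state (chr6:89926528-90296843), stood at 268 ppm in Namalwa and 0.359 in Jiyoye and 376 in BL-41. IGLL1, a part of the surrogate light chain of pre-B cells, was at 404 ppm in Namalwa and 0.596 in Jiyoye (difference 8.53 ± 0.39), with 269 and 1.16 in the hairpin arms. Its sequence resembles the lambda constant genes, so the split of reads between them is uncertain. ROR1, a receptor tyrosine kinase-like protein, was at 139 ppm in Namalwa and 0.207 in Jiyoye. IGF2BP1, an RNA-binding protein of fetal tissues, was at 293 ppm in Namalwa and 0.216 in Jiyoye and at 339 in BL-41. EEF1A2, an elongation factor of muscle and neurons, was at 330.3 ppm in Namalwa and 0.309 in Jiyoye, and APP, the amyloid precursor, at 215 ppm in Namalwa and 0.178 in Jiyoye. Unlike UCHL1 and BACH2, EEF1A2 and APP were also near 0 in BL-41 (0.299 and 0.101 ppm). GPER1 (304 ppm in Namalwa and 0.206 in Jiyoye), COCH (322 ppm in Namalwa and 0.116 in Jiyoye), SCN3A (163 ppm in Namalwa and 0.0984 in Jiyoye), CPXM1 (127 ppm in Namalwa and 0.0723 in Jiyoye) and the interferon-stimulated gene IFI44L complete the 12. All 12 were again at least 2-fold higher in Namalwa in the hairpin arms.

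Host genes listed here as inducible by EBV's growth programme were mostly higher in Jiyoye. Induction of the single members by EBV was not tested. Among receptors and adhesion molecules, 19 of 27 kept members were at least 2-fold higher in Jiyoye, against 18.7% of all compared genes, 3 were higher in Namalwa and 5 differed less, with a median difference of -1.90. CCR7, the receptor that guides lymphocytes into lymph nodes, stood at 1.91 ppm in Namalwa and 566 in Jiyoye (difference -7.88 ± 0.28), and at 2.24 and 475 in the hairpin arms. CD44, an adhesion receptor for hyaluronan, stood at 0.0881 ppm in Namalwa and 131 in Jiyoye (difference -7.81 ± 0.25). CR2, the complement receptor through which EBV enters B cells, stood at 1.31 ppm in Namalwa and 72.1 in Jiyoye. For these receptors Namalwa was near 0 or low in both arms and Jiyoye was not. BL-41 stood at 44.0 ppm for CCR7, 0.0677 for CD44 and 1.92 for CR2. Over the list BL-41 was nearer to Namalwa for 17 of 27 members and nearer to Jiyoye for 10, where 57.3% of all genes were nearer to Namalwa. CXCR5, the receptor that draws B cells into follicles, was at 0.461 ppm in Namalwa and 35.1 in Jiyoye. As a member of the list it is in the counts above, but it is not read as an EBV-induced gene. LGALS1, the lectin galectin-1, was at 0.3595 ppm in Namalwa and 28.95 in Jiyoye. In BL-41 CXCR5 stood at 11.9 ppm and LGALS1 at 18.8, above Namalwa. ICAM1, the ligand of the integrin LFA-1, was expressed by both lines, 94.2 ppm in Namalwa and 382 in Jiyoye (difference -2.02 ± 0.12). CD40, the receptor of T cell help, was at 15.04 ppm in Namalwa and 57.6 in Jiyoye, and CD58, the ligand of CD2, at 7.81 ppm in Namalwa and 30.5 in Jiyoye. The list had exceptions. FCER2, which encodes CD23, the classic surface marker of EBV-activated B cells, was higher in Namalwa, 68.3 ppm in Namalwa and 8.29 in Jiyoye (difference 2.97 ± 0.17), with 49.2 and 18.8 in the hairpin arms. GPR183, a receptor for oxysterols that positions activated B cells, was also higher in Namalwa (41.2 ppm in Namalwa and 6.03 in Jiyoye).

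Secreted products followed the same direction. Of 27 genes in the chemokine and cytokine list, 23 were in both tables, 5 of these under the filter, 3 in the Jiyoye table only and 1 in neither. Of 18 kept members, 12 were at least 2-fold higher in Jiyoye and 4 in Namalwa (median -2.31). Members near 0 in 1 line passed the filter only by being high in the other, so the count is a description. Without a filter the median was -1.31. EBI3, a cytokine subunit first found as an EBV-induced gene, stood at 0.512 ppm in Namalwa and 102 in Jiyoye (difference -6.67 ± 0.32) and at 0.367 and 67.6 in the hairpin arms. IL32 stood at 2.800 ppm in Namalwa and 284 in Jiyoye and IL10, an anti-inflammatory cytokine, at 0.441 ppm in Namalwa and 62.6 in Jiyoye (difference -6.07 ± 0.31). CCL22, a chemokine for regulatory T cells whose promoter is printed above, was at 0.642 ppm in Namalwa and 40.2 in Jiyoye and at 0.814 and 67.9 in the hairpin arms. These 4 products were near or under 3 ppm in Namalwa. LTA and LTB, the lymphotoxins, stood at 0.498 and 0.457 ppm in Namalwa and 24.7 and 28.1 in Jiyoye. CCL3, a chemokine induced by B cell activation with near-identical copies, was low in both lines (2.25 ppm in Namalwa and 10.3 in Jiyoye). The 4 members higher in Namalwa, named after their values were seen, were IL16 (79.2 ppm in Namalwa and 9.56 in Jiyoye) and the chemokine copies CCL3L1 (38.4 ppm in Namalwa and 1.54 in Jiyoye), CCL3L3 (21.2 ppm in Namalwa and 0.559 in Jiyoye) and CCL4L2 (16.1 ppm in Namalwa and 0.123 in Jiyoye). Reads can be split between these copies and CCL3 or CCL4, so their own levels are uncertain. CCL4 itself was under the filter (0.987 ppm in Namalwa and 0.149 in Jiyoye).

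Signalling and survival genes of the same programme leaned the same way, with more genes under 2-fold. Of 31 kept members, 16 were at least 2-fold higher in Jiyoye, 3 in Namalwa and 12 differed less (median -1.09). TNFAIP3, which encodes A20, the enzyme that shuts off NF-kB signalling, stood at 7.47 ppm in Namalwa and 322 in Jiyoye (difference -5.34 ± 0.29), with 7.13 and 305 in the hairpin arms and 26.6 in BL-41. TRAF1, a TNF receptor adaptor, stood at 5.55 ppm in Namalwa and 149 in Jiyoye in the scrambled arms and at 3.97 and 69.2 in the hairpin arms. BIRC3, which encodes the apoptosis inhibitor cIAP2, was at 77.9 ppm in Namalwa and 522 in Jiyoye (difference -2.74 ± 0.13), and CFLAR, the inhibitor of caspase-8, at 84.2 ppm in Namalwa and 414 in Jiyoye. All of them are textbook NF-kB targets. BATF, an AP-1 factor of activated lymphocytes, stood at 0.3097 ppm in Namalwa and 41.5 in Jiyoye, FSCN1, the actin bundler fascin, at 0.786 ppm in Namalwa and 74.8 in Jiyoye, and VIM, vimentin, at 3.45 ppm in Namalwa and 291 in Jiyoye. VIM was not low in the EBV-negative BL-41, at 549 ppm. Over the list BL-41 was nearer to Namalwa for 24 of 31 members and nearer to Jiyoye for 7. IRF4, a factor of activated B cells and plasma cells, was at 163 ppm in Namalwa and 569.7 in Jiyoye in the scrambled arms (difference -1.80 ± 0.15) but at 120.5 and 199 in the hairpin arms, less than 2-fold apart there. BCL2 (103 ppm in Namalwa and 124 in Jiyoye) and MCL1 (273 ppm in Namalwa and 509 in Jiyoye), both inhibitors of apoptosis, differed less than 2-fold.

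Of 30 kept NF-kB subunits and regulators, 19 differed less than 2-fold, 8 were higher in Jiyoye and 3 in Namalwa (median -0.28). The list was thus no closer between the lines than all compared genes. Of those, 32.5% were past 2-fold and 18.7% were at least 2-fold higher in Jiyoye. The subunits RELA (112 ppm in Namalwa and 97.6 in Jiyoye, difference 0.20 ± 0.10), RELB (68.9 ppm in Namalwa and 53.7 in Jiyoye) and NFKB1 (59.1 ppm in Namalwa and 79.8 in Jiyoye) were within 2-fold. NFKB2 (60.9 ppm in Namalwa and 192 in Jiyoye) and REL (40.7 ppm in Namalwa and 92.4 in Jiyoye), which are themselves NF-kB targets, were higher in Jiyoye. NFKBIA, which encodes the inhibitor IkB-alpha (29.7 ppm in Namalwa and 195 in Jiyoye), and NFKBIZ (5.43 ppm in Namalwa and 52.1 in Jiyoye) were higher in Jiyoye as well. IRAK1, the kinase below Toll-like receptors, was higher in Namalwa (494 ppm in Namalwa and 145 in Jiyoye). The NF-kB consensus was present in 16 of 59 promoters of the 3 EBV-inducible lists (27.1%) and in 10 of 25 of the NF-kB list (40.0%), against 7.92% of 9740 compared genes with a promoter and 5.21% of all 35116 promoters. Of the 16 genes with the consensus 12 were at least 2-fold higher in Jiyoye (median -2.71), and of the 43 without it 27 were (median -1.41). These lists hold known NF-kB targets, so their high share is not a result about the lines. Among all compared genes with a promoter, the consensus was present in 11.9% of those at least 8-fold higher in Jiyoye. The share was 10.5% for those at least 8-fold higher in Namalwa and 7.08% for those within 2-fold. A match is a description of these letters and not of binding.

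**Figure D3:**
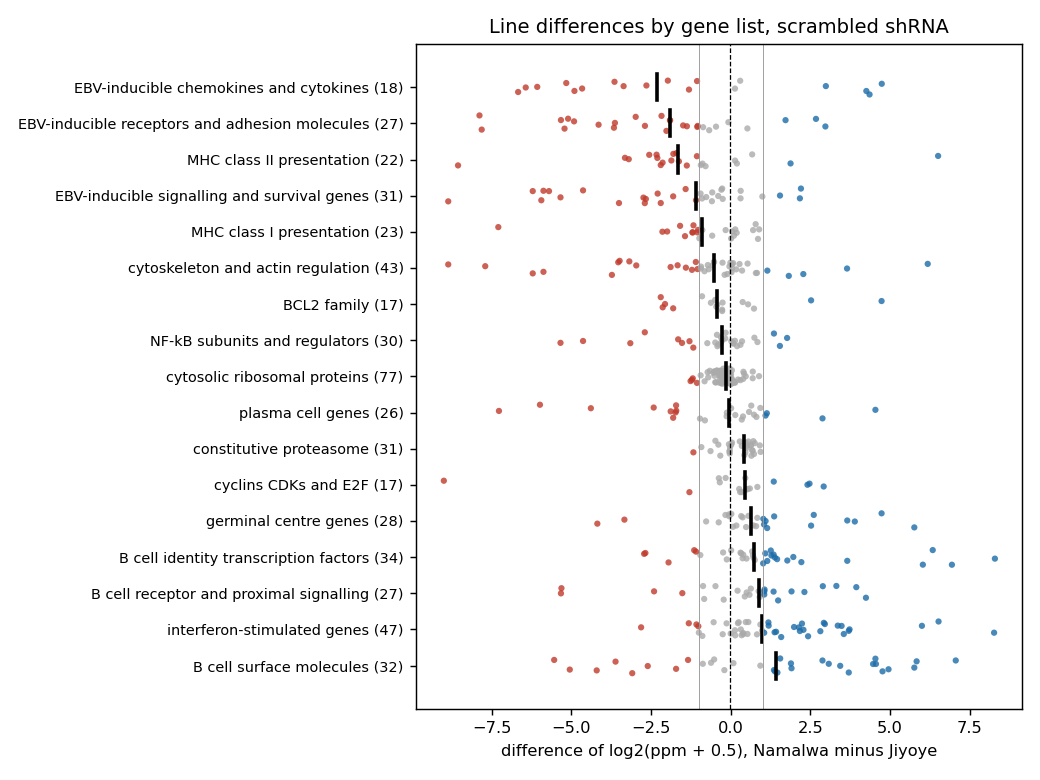
Difference between Namalwa and Jiyoye (log2, x axis) of each kept member of 17 gene lists, scrambled arms, with the number of members in brackets. Blue and red points are at least 2-fold apart, black bars are list medians, the dashed line is the median of all compared genes (-0.01) and thin lines mark 2-fold. Medians run from -2.31 for EBV-inducible chemokines and cytokines to 1.43 for B cell surface molecules.

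Antigen presentation leaned to Jiyoye, with most class II genes and fewer of the class I genes past 2-fold. Of 22 kept class II genes, 14 were at least 2-fold higher in Jiyoye and 2 in Namalwa (median -1.66), and their summed level was 5539 ppm in Namalwa and 16113 in Jiyoye. CD74, the invariant chain, which guards the empty groove, stood at 3108 ppm in Namalwa and 8068 in Jiyoye (difference -1.38 ± 0.10), and HLA-DRA, the constant chain of HLA-DR, at 742 ppm in Namalwa and 2419.9 in Jiyoye (difference -1.71 ± 0.11). HLA-DQA1 (53.8 ppm in Namalwa and 540.1 in Jiyoye) and HLA-DQB1 (67.5 ppm in Namalwa and 623 in Jiyoye), the chains of HLA-DQ, were further apart, at -3.32 ± 0.15 and -3.20 ± 0.13. LGMN, a lysosomal protease, stood at 57.6 ppm in Namalwa and 341 in Jiyoye. CIITA, the master regulator of class II transcription, was less than 2-fold apart (89.6 ppm in Namalwa and 166 in Jiyoye, difference -0.88 ± 0.12). HLA-DRB3 (0.0629 ppm in Namalwa and 211 in Jiyoye) and HLA-DRB4 (49.6 ppm in Namalwa and 0.0521 in Jiyoye) went opposite ways. Each is present on some HLA-DR haplotypes only, and HLA alleles and DRB copies share reads, so levels of single HLA genes are uncertain. The Y box was present in 8 of 16 class II promoters, against 11.6% of compared genes, and 6 of those 8 genes, against 5 of the 8 without it, were at least 2-fold higher in Jiyoye. Over all compared genes with a promoter, its share was 10.7% at 8-fold higher in Jiyoye, 6.85% at 8-fold higher in Namalwa and 11.7% within 2-fold.

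In class I, 10 of 23 kept genes were at least 2-fold higher in Jiyoye and 0 in Namalwa (median -0.89). HLA-B (937 ppm in Namalwa and 2815 in Jiyoye) and HLA-C (538 ppm in Namalwa and 2141 in Jiyoye), classical heavy chains, stood at differences of -1.59 and -1.99. B2M, the light chain they share, stood at 1581 ppm in Namalwa and 3259 in Jiyoye (difference -1.04 ± 0.11), just past 2-fold. HLA-F, a class I gene outside the classical set, was at 0.214 ppm in Namalwa and 111 in Jiyoye (difference -7.29 ± 0.29) and at 11.7 in BL-41. Of the peptide transporter subunits, TAP1 was higher in Jiyoye (70.3 ppm in Namalwa and 191 in Jiyoye) and TAP2 was less than 2-fold apart and leaned to Namalwa (148 ppm in Namalwa and 90.8 in Jiyoye). NLRC5, the class I transactivator, also leaned to Namalwa within 2-fold (149 ppm in Namalwa and 86.1 in Jiyoye). CIITA thus differed less than the class II chains named above, and NLRC5 leaned the opposite way to HLA-B and HLA-C. BL-41 was nearer to Namalwa for 16 of 22 class II genes and 15 of 23 class I genes.

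B cell receptor and surface genes leaned to Namalwa. Of 27 kept genes of the receptor and its first signalling steps, 11 were at least 2-fold higher in Namalwa, against 13.8% of all compared genes, 4 in Jiyoye and 12 differed less (median 0.88). CD79A and CD79B, the signalling chains of the receptor, stood at 625 and 589 ppm in Namalwa and 83.9 and 37.96 in Jiyoye. SYK, the kinase that the chains recruit, stood at 308 ppm in Namalwa and 15.8 in Jiyoye (difference 4.24 ± 0.15), with 300.4 and 9.995 in the hairpin arms. PTPRC, the phosphatase CD45, was at 333 ppm in Namalwa and 32.98 in Jiyoye, and PIK3AP1, an adaptor of PI3-kinase, at 229 ppm in Namalwa and 45.6 in Jiyoye. The kinase BTK was less than 2-fold apart (192 ppm in Namalwa and 105 in Jiyoye). BLNK, the adaptor between SYK and BTK, was higher in Jiyoye, 92.1 ppm in Namalwa and 265 in Jiyoye in the scrambled arms and 73.2 and 134 in the hairpin arms, where the difference fell under 2-fold.

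Among B cell surface molecules, 18 of 32 kept members were at least 2-fold higher in Namalwa and 8 in Jiyoye (median 1.43). IL7R, the interleukin-7 receptor of early B cells, stood at 74.8 ppm in Namalwa and 0.0654 in Jiyoye (difference 7.06 ± 0.35). CD180, a Toll-like receptor homologue, was at 167 ppm in Namalwa and 2.45 in Jiyoye, CD24 at 284 ppm in Namalwa and 11.6 in Jiyoye, CD38 at 325 ppm in Namalwa and 43.7 in Jiyoye and CD72 at 81.9 ppm in Namalwa and 9.27 in Jiyoye. CD22, an inhibitory receptor, was at 67.3 ppm in Namalwa and 24.1 in Jiyoye (difference 1.47 ± 0.27). MS4A1, which encodes CD20, the target of rituximab, went the opposite way at 6.85 ppm in Namalwa and 242 in Jiyoye (difference -5.05 ± 0.30), with 8.16 and 198 in the hairpin arms and 535 in BL-41. CD20 was thus low in Namalwa and not in the other lines. CD27, a marker of memory B cells, was higher in Jiyoye (24.97 ppm in Namalwa and 82.98 in Jiyoye), and so was CD200, under 3 reads in Namalwa and at 23.1 ppm in Jiyoye. CD37 was less than 2-fold apart (148 ppm in Namalwa and 272 in Jiyoye).

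Several transcription factors of the B cell lineage were expressed in Namalwa and near 0 in Jiyoye. Of 34 kept factors, 16 were at least 2-fold higher in Namalwa, 5 in Jiyoye and 13 differed less (median 0.73), and at 8-fold the counts were 5 and 0. EBF1, which with PAX5 commits cells to the B lineage (chr5:158695920-159099916), stood at 78.7 ppm in Namalwa and 0.146 in Jiyoye (difference 6.94 ± 0.38), at 74.8 and 0.163 in the hairpin arms and at 106 in BL-41. LEF1, a factor of Wnt signalling and of B cell progenitors, stood at 198 ppm in Namalwa and 2.55 in Jiyoye, and AFF3 at 85.6 ppm in Namalwa and 0.566 in Jiyoye. EBF1, BACH2, LEF1 and AFF3 were thus high in Namalwa and BL-41 and low or near 0 in Jiyoye. TCF3, which encodes E2A, the factor that drives Burkitt growth, was at 1643 ppm in Namalwa and 628 in Jiyoye (difference 1.39 ± 0.11), and its inhibitor ID3, often mutated in Burkitt lymphoma, was also higher in Namalwa (159 ppm in Namalwa and 47.7 in Jiyoye). SPIB, an ETS factor, was at 160.1 ppm in Namalwa and 66.7 in Jiyoye. RUNX3, an EBNA2-induced factor, was just past 2-fold higher in Jiyoye (139 ppm in Namalwa and 296 in Jiyoye, difference -1.09 ± 0.13).

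Germinal centre genes leaned to Namalwa. Of 28 kept members, 11 were at least 2-fold higher in Namalwa, 2 in Jiyoye and 15 differed less (median 0.64, and 0.36 in the hairpin arms), and BL-41 was nearer to Namalwa for 26 of 28. The 2 genes higher in Jiyoye were both past 8-fold, with a lowest difference of -4.18, and 4 genes were past 8-fold in Namalwa. MME, which encodes CD10, stood at 361 ppm in Namalwa and 6.18 in Jiyoye (difference 5.76 ± 0.20) and at 349 in BL-41. BCL6, the master repressor of the germinal centre, was at 55.8 ppm in Namalwa and 3.97 in Jiyoye (difference 3.66 ± 0.22), with 43.6 and 5.97 in the hairpin arms. LMO2 was at 11.03 ppm in Namalwa and 0.276 in Jiyoye, and the pro-apoptotic BH3-only genes HRK and BIK were at 66.1 and 37.2 ppm in Namalwa and 2.005 and 6.06 in Jiyoye. GCSAM, S1PR2 and MYBL1, also germinal centre genes, were less than 2-fold apart, with differences of -0.04, -0.38 and 0.37. GCSAM fell in the same way in both hairpin arms (222 and 245 ppm), so its line difference stayed near 0.

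**Figure D4:**
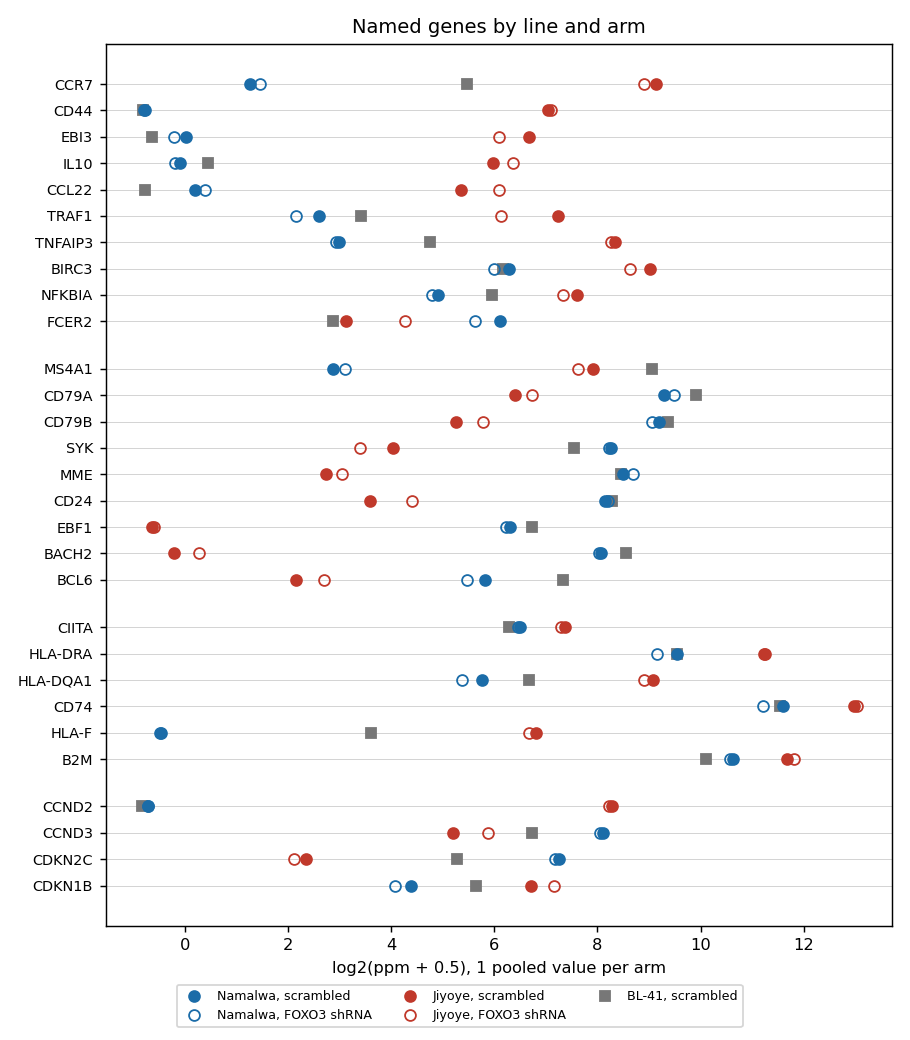
Levels of 29 named genes as log2 of the ppm value plus 0.5. Blue is Namalwa, red Jiyoye and grey squares BL-41. Filled circles are scrambled arms and open circles FOXO3 hairpin arms, each 1 pooled value. The lines stand further apart than the arms of a line for most genes, and BL-41 lies by Namalwa for MME, EBF1 and BACH2 but by or above Jiyoye for MS4A1.

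Of 26 kept plasma cell genes, 9 were at least 2-fold higher in Jiyoye and 4 in Namalwa, against 18.7% and 13.8% of all compared genes. The list's median lay near that of all genes (-0.05, and 0.21 in the hairpin arms). Differences ran from -7.27 to 4.54, and 3 genes were past 8-fold in Jiyoye and 1 in Namalwa. PRDM1, which encodes Blimp-1, the driver of the plasma cell state, stood at 7.54 ppm in Namalwa and 25.8 in Jiyoye (difference -1.71 ± 0.22), and ELL2, an elongation factor of antibody-secreting cells, at 9.64 ppm in Namalwa and 211 in Jiyoye. XBP1, the factor of the secretory programme, was alike (266 ppm in Namalwa and 289 in Jiyoye). SDC1, which encodes the plasma cell marker CD138, was near 0 in both (0.0885 ppm in Namalwa and 0.196 in Jiyoye). SLAMF7, a surface receptor of plasma cells, stood at 4.66 ppm in Namalwa and 326 in Jiyoye and at 4.202 and 107 in the hairpin arms.

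Genes of cell migration split evenly, 10 of 27 at least 2-fold higher in Namalwa and 10 in Jiyoye. Their median was 0.48 in the scrambled arms and -0.19 in the hairpin arms, so no lean of the list can be stated. Single receptors were far apart. RGS1, a brake on chemokine receptors, was at 0.0846 ppm in Namalwa and 66.7 in Jiyoye. S1PR1, the receptor for exit from lymph nodes, was higher in Jiyoye (0.664 ppm in Namalwa and 9.59 in Jiyoye), while S1PR4 (67.5 ppm in Namalwa and 0.9796 in Jiyoye) and CXCR4 (356 ppm in Namalwa and 166 in Jiyoye), the receptor of the dark zone, were higher in Namalwa.

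Interferon-stimulated genes leaned to Namalwa. Of 47 kept members, 23 were at least 2-fold higher in Namalwa, 4 in Jiyoye and 20 differed less (median 0.98). In the hairpin arms the median was 0.55. IFI44L stood at 202 ppm in Namalwa and 0.161 in Jiyoye (difference 8.26 ± 0.39), at 111 and 0.418 in the hairpin arms and at 0.0486 in BL-41. IFI44 was at 37.2 ppm in Namalwa and 0.0909 in Jiyoye, OAS1, the sensor that activates RNase L, at 45.9 ppm in Namalwa and 6.12 in Jiyoye, IFIT1, which binds foreign RNA, at 11.3 ppm in Namalwa and 1.06 in Jiyoye, and USP18, the enzyme that removes ISG15, at 18.1 ppm in Namalwa and 0.904 in Jiyoye. IFITM2, a membrane protein that blocks virus entry, was at 172 ppm in Namalwa and 1.38 in Jiyoye, and unlike the others was as high in BL-41 (159.9). MX1, a dynamin-like antiviral GTPase, stood just under 2-fold (139 ppm in Namalwa and 70.02 in Jiyoye, difference 0.98 ± 0.20), and ISG15, the ubiquitin-like modifier, was less than 2-fold apart too (35.7 ppm in Namalwa and 19.9 in Jiyoye). IRF7, the factor of interferon production, stood at 42.1 ppm in Namalwa and 15.9 in Jiyoye but at 30.2 and 24.4 in the hairpin arms. BL-41, nearer to Namalwa for 57.3% of all genes, was nearer to Jiyoye for 29 of 47 of these genes. The interferon half-sites were present in 20 of 36 promoters of the list (55.6%), against 3.53% of compared genes. Among the genes with them 10 of 20 were at least 2-fold higher in Namalwa (median 1.02), and among those without 7 of 16 (median 0.54). Over all compared genes with a promoter, the share was 9.27% at 8-fold higher in Namalwa, 5.37% at 8-fold higher in Jiyoye and 2.96% within 2-fold.

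Sensors of nucleic acids and microbes were mixed, with 10 of 23 at least 2-fold higher in Namalwa and 5 in Jiyoye (median 0.10). The Toll-like receptors of the list that are named here were all higher in Namalwa. TLR7, which reads single-stranded RNA, stood at 50.5 ppm in Namalwa and 2.07 in Jiyoye, TLR9, which reads unmethylated DNA, at 47.1 ppm in Namalwa and 19.7 in Jiyoye, and TLR10 at 81.7 ppm in Namalwa and 4.02 in Jiyoye. TLR1 (9.69 ppm in Namalwa and 0.8305 in Jiyoye) and TLR6 (12.8 ppm in Namalwa and 0.973 in Jiyoye), which pair with TLR2 at the surface, were lower in level and differed alike. CGAS, the cytosolic DNA sensor, was under 3 reads in Namalwa and at 10.1 ppm in Jiyoye, while TMEM173, which encodes its adaptor STING, was higher in Namalwa (19.6 ppm in Namalwa and 7.203 in Jiyoye).

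The lines differed in the RNA levels of D-type cyclins. CCND3, the cyclin D3 that germinal centre B cells need, was expressed in both and higher in Namalwa (277 ppm in Namalwa and 36.2 in Jiyoye, difference 2.92 ± 0.17). CCND2 was near 0 in Namalwa and high in Jiyoye (0.1101 ppm in Namalwa and 311 in Jiyoye), while CCND1 was low in both (0.942 ppm in Namalwa and 0.384 in Jiyoye). CDK6, a partner kinase of both cyclins, was higher in Namalwa (264 ppm in Namalwa and 103 in Jiyoye) and CDK4 was less than 2-fold apart (183 ppm in Namalwa and 120.3 in Jiyoye). E2F1 (163 ppm in Namalwa and 30.2 in Jiyoye) and E2F2 (254 ppm in Namalwa and 45.4 in Jiyoye), the factors that the kinases release, were higher in Namalwa. Of 10 kept CDK inhibitors and pocket proteins, 4 were at least 2-fold higher in Namalwa and 2 in Jiyoye. CDKN2A, CDKN2C and CDKN2D, all of the INK4 family, stood at 87.4, 153 and 26.1 ppm in Namalwa and 32.8, 4.602 and 3.92 in Jiyoye. CDKN1B, which encodes p27, was higher in Jiyoye (20.3 ppm in Namalwa and 104 in Jiyoye, difference -2.33 ± 0.18), and CDKN1A, p21, was less than 2-fold apart (115 ppm in Namalwa and 141 in Jiyoye). CDKN1C, p57 of the same family as p21 and p27 and chosen after its values were seen, was low and higher in Namalwa (5.203 ppm in Namalwa and 0.457 in Jiyoye, difference 2.58 ± 0.41). Over the whole cyclin, kinase and E2F list 11 of 17 genes differed less than 2-fold. This is near the share of all compared genes, of which 32.5% were past 2-fold.

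In the BCL2 family 11 of 17 genes differed less than 2-fold, 4 were higher in Jiyoye and 2 in Namalwa. These counts are near the shares of all compared genes, of which 18.7% were at least 2-fold higher in Jiyoye and 13.8% in Namalwa. The BH3-only genes BMF (44.6 ppm in Namalwa and 197 in Jiyoye) and BBC3, which encodes PUMA (6.81 ppm in Namalwa and 25.03 in Jiyoye), and the survival genes BCL2A1 (1.402 ppm in Namalwa and 8.200 in Jiyoye) and BCL2L2 (9.06 ppm in Namalwa and 39.4 in Jiyoye) were higher in Jiyoye. BCL2L11, which encodes the BH3-only protein BIM and is a known FOXO3 target, was less than 2-fold apart (67.98 ppm in Namalwa and 105 in Jiyoye). FAS, the death receptor that starts the caspase cascade from the surface, was higher in Jiyoye (3.302 ppm in Namalwa and 70.1 in Jiyoye, difference -4.22 ± 0.21).

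Genes of the FOXO and PI3-kinase pathway showed no common direction. FOXO1 (79.1 ppm in Namalwa and 45.3 in Jiyoye), FOXO4 (13.4 ppm in Namalwa and 20.98 in Jiyoye) and FOXO6 (12.4 ppm in Namalwa and 12.3 in Jiyoye) were, like FOXO3, less than 2-fold apart. Of 30 kept FOXO target genes, 9 were at least 2-fold higher in Namalwa and 8 in Jiyoye (median 0.04), against 13.8% and 18.7% of all compared genes. The other 13 differed less than 2-fold, so the list differed more often than all genes, of which 32.5% were past 2-fold. At 8-fold the counts were 5 and 2. INSR, the insulin receptor, stood at 321 ppm in Namalwa and 1.204 in Jiyoye (difference 7.56 ± 0.32), and IRS2, its docking protein, was under 3 reads in Jiyoye and at 15.5 ppm in Namalwa. AKT1 (195 ppm in Namalwa and 166 in Jiyoye) and PIK3CA (120.4 ppm in Namalwa and 72.3 in Jiyoye), kinases at the centre of the pathway, were within 2-fold. PIK3R5, a regulatory subunit of PI3-kinase gamma, was higher in Jiyoye (3.95 ppm in Namalwa and 162 in Jiyoye).

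Genes of actin and the cytoskeleton were higher in Jiyoye more often than in Namalwa, 15 against 5 of 43 kept members (median -0.52). MYO1E, a membrane-bound myosin, stood at 0.359 ppm in Namalwa and 178 in Jiyoye (difference -7.70 ± 0.30), beside MARCKS, FSCN1 and VIM above. EVL, which extends actin filaments, was 1 of the 5 members higher in Namalwa (144 ppm in Namalwa and 1.501 in Jiyoye, difference 6.18 ± 0.24). TAGLN2, an abundant actin binder, was less than 2-fold apart (855 ppm in Namalwa and 494 in Jiyoye).

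Genes known to be silenced by DNA methylation in tumours or in normal tissues were also compared, and several but not all were near 0 in 1 line. DNA methylation was not measured here, and its part in these differences was not tested. Of 51 cancer-testis antigens, 18 were in both tables, 16 in the Jiyoye table only, 2 in the Namalwa table only and 15 in neither, and 9 passed the filter. For the reason given for the stromal markers, a count over these members is not read as a result. MAGEA3 and SSX1 were under 3 reads in Namalwa and at 97.2 and 51.9 ppm in Jiyoye, MAGEA6 was at 0.113 ppm in Namalwa and 81.7 in Jiyoye and SPANXB1 at 0.148 ppm in Namalwa and 117 in Jiyoye. MAGEA3 and MAGEA6 are near-identical, as are the SSX and SPANX copies, so the split between copies is uncertain. IGF2BP1, described above, was a member higher in Namalwa. Of 26 kept metabolic genes of this kind, 6 were at least 2-fold higher in Namalwa and 8 in Jiyoye (median 0.09). Higher in Namalwa were ASS1, which makes argininosuccinate for arginine synthesis (307 ppm in Namalwa and 1.99 in Jiyoye, difference 6.94 ± 0.29), BCAT1, a branched-chain transaminase (623 ppm in Namalwa and 61.6 in Jiyoye), and PSAT1, an enzyme of serine synthesis (341 ppm in Namalwa and 51.96 in Jiyoye). Higher in Jiyoye were GATM, an enzyme of creatine synthesis (1.51 ppm in Namalwa and 31.7 in Jiyoye), and NAPRT, an enzyme of NAD synthesis (2.63 ppm in Namalwa and 18.2 in Jiyoye). Of 21 kept detoxification genes, 3 were at least 2-fold higher in Namalwa and 6 in Jiyoye. MGST1, a membrane glutathione transferase, was at 54.4 ppm in Namalwa and 0.0645 in Jiyoye, and MGST2, its relative, went the opposite way at 5.35 ppm in Namalwa and 59.4 in Jiyoye. UGT2B17, a steroid glucuronosyltransferase, was under 3 reads in Namalwa and at 101 ppm in Jiyoye. GSTP1 was alike (374 ppm in Namalwa and 393 in Jiyoye).

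Housekeeping lists differed little. Of 77 cytosolic ribosomal protein genes, 73 were less than 2-fold apart (median -0.16), and the 4 past 2-fold, RPL26, RPL29, RPS24 and RPS29, were higher in Jiyoye with differences from -1.26 to -1.06. Of 31 proteasome genes 30 were less than 2-fold apart (median 0.43). Of 26 chromatin genes mutated in lymphoma, 20 were within 2-fold, where 32.5% of all compared genes were past it. EZH2, the histone methyltransferase of the germinal centre, was higher in Namalwa (137 ppm in Namalwa and 34.8 in Jiyoye).

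**Figure D5:**
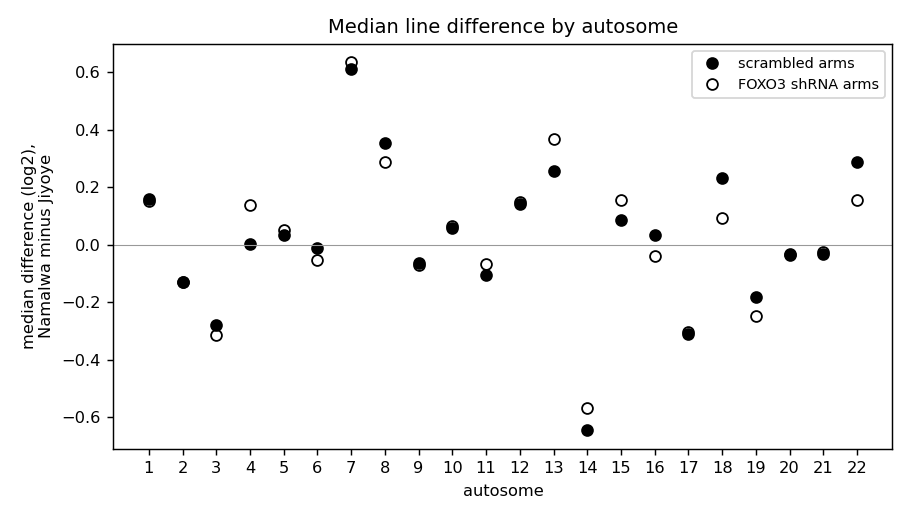
Median difference between Namalwa and Jiyoye (log2, y axis) over the compared genes of each autosome (x axis). Filled circles are scrambled arms and open circles FOXO3 hairpin arms. Chromosome 7 stands highest (0.61 and 0.63) and chromosome 14 lowest (-0.65 and -0.57).

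The difference also varied by chromosome. The 543 compared genes of chromosome 7 had a median of 0.61, and 31.3% of them were at least 2-fold higher in Namalwa against 13.8% of all. The 399 genes of chromosome 14 had a median of -0.65, and 38.8% of them were at least 2-fold higher in Jiyoye against 18.7% of all. The medians of the other autosomes lay between -0.31 on chromosome 17 and 0.35 on chromosome 8. DNA copy number was not measured here. Among the genes described, CDK6, EZH2, GPER1 and RHEB (169 ppm in Namalwa and 46.3 in Jiyoye), the small GTPase above mTORC1, lie on chromosome 7 and were higher in Namalwa, whereas FSCN1 on the same chromosome was higher in Jiyoye. TNFAIP2 (0.217 ppm in Namalwa and 43.5 in Jiyoye), an NF-kB target, and BATF, NFKBIA, LGMN, RPS29 and BCL2L2 lie on chromosome 14 and were higher in Jiyoye, whereas COCH and EVL on the same chromosome were higher in Namalwa.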

How the data were processed

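Messenger RNA of 3 scrambled-shRNA libraries in each of Namalwa and Jiyoye was compared. Reads were filtered with SOAPnuke and mapped to hg38 with Bowtie2, genes were quantified with RSEM and compared with DESeq2, per the series' design text and the submitters' processing notes, and no versions are given there. For each line the authors deposited 1 table with 1 moderated signal value per arm after size-factor scaling. Values of single libraries were not analysed here. The deposited log2 fold change sets the FOXO3 hairpin against the scrambled one within a line, and equals the log2 ratio of the arm values (largest difference 1.39e-14). The p-values and adjusted p-values are those deposited by the authors, and they compare arms within a line only. Gene length is in the deposited tables and was not used for the differences.

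Here each arm value was scaled to a sum of 1000000 (ppm) over its own table, the tables were joined on gene ID, and log2(value + 0.5) was subtracted. Genes with a mean of at least 1 ppm were kept, and 2-fold and 8-fold differences were counted. No test between lines was made. The approximate SE is the root mean square of the SE of both lines, each the authors' fold change divided by the normal quantile of its p, and is understated for genes near 0. The 36 gene lists (1030 entries, 759 distinct kept genes) and the comparison itself were chosen with earlier results of these data known. List medians are given for at least 5 kept members. Named genes are the 12 largest differences each way among genes with a mean of at least 20 ppm, up to 5 members per list with the largest differences and a mean of at least 5 ppm, the key members of each list, and the 6 highest genes listed in 1 table only. Some genes that this names are not reported here. Alternatives were other pseudocounts, filters and scalings and the FOXO3 hairpin arms. Promoters and gene coordinates come from RefSeq (GRCh38.p14), which matched 11820 of the 11831 kept genes, and 9740 had a promoter. The scripts were tested on simulated data. The work used scipy 1.17.1, numpy 2.4.6, matplotlib 3.10.9 and pandas 2.3.3 under Python 3.11.15.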

Additional observations from a re-analysis of the deposited data

How the results depend on the processing

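No paired analysis was possible because each arm has 1 pooled value, and for the same reason no replicate could be left out. Under 10 alternatives between 1354 and 1725 genes were at least 2-fold higher in Namalwa, and between 1614 and 2502 in Jiyoye. At 8-fold the counts lay between 196 and 438 for Namalwa and between 342 and 812 for Jiyoye, and the lowest of each, 196 and 342, came with a pseudocount of 2. The 3 other scalings shift all differences by nearly the same small amount, so that no gene past 2-fold could change direction. Under them the share of 2-fold differences that were higher in Namalwa moved from 42.6% to between 38.2% and 42.4%. Scaling by the median of ratios shifted the median of all genes to -0.09.

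With a pseudocount of 2 the median of EBV-inducible chemokines and cytokines was -1.63, of cancer-testis antigens -3.89, of T cell markers -0.96 and of stromal and epithelial markers -2.41. With a pseudocount of 0.1 the last 3 were -7.64, -3.72 and -4.43, and with none -9.39, -5.06 and -4.72. Without a filter the medians were -1.31 for EBV-inducible chemokines and cytokines, -0.58 for class I presentation, -0.19 for CDK inhibitors, -0.62 for cancer-testis antigens, -0.73 for T cell markers and -2.45 for stromal and epithelial markers. With a mean of at least 5 ppm they were -0.27 for CDK inhibitors (0.36 as reported), -6.19 for cancer-testis antigens, 0.36 for methylation-prone metabolic genes, -0.32 for T cell markers and 0.64 for myeloid markers (-0.15 as reported). In the FOXO3 hairpin arms they were 0.58 for B cell receptor genes, 0.36 for the TCF3 and ID3 axis, 0.21 for plasma cell genes, -0.19 for migration genes and 0.55 for interferon-stimulated genes. With the mean of both arms they were 0.51 for the TCF3 and ID3 axis, -0.14 for migration genes and 0.64 for interferon-stimulated genes. The medians of CDK inhibitors, plasma cell, migration and myeloid genes thus changed sign, and the cause was not tested.

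Without values per library, a difference near 2-fold cannot be told from the spread between cultures, and levels under 0.0552 ppm in Namalwa or 0.0586 in Jiyoye, 3 reads over an arm, are not readable as expression.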

Other observations

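Genes listed for 1 line only were left out of the differences. The Jiyoye table lists 1854 genes that the Namalwa table does not, of which 44 were at 10 ppm or more, and the Namalwa table lists 432 that the Jiyoye table does not, of which 7 were. A gene that a table does not list has no value there and is not read as 0. The highest in Jiyoye only were KIAA1549L (147 ppm), the adhesion receptor ADGRV1 (131), MARC2 (98.8), the basal keratin KRT5 (96.4), myocilin, MYOC (79.4), and the mucin MUC16 (77.7). In the hairpin arm ADGRV1 stood at 48.4, KRT5 at 42.8, MYOC at 29.4 and MUC16 at 36.9 ppm. The highest in Namalwa only were SLA, an adaptor that dampens antigen receptor signalling (38.7 ppm), ZNF704 (31.5), RAG2 (28.9), PCED1B (13.2), ERFE (12.8) and BHLHE41 (12.6).

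RAG2 is a subunit of the recombinase that assembles antibody genes in early B cells, and other genes of that stage were looked up after the values of RAG2 and IGLL1 were seen. VPREB1, the other part of the surrogate light chain, stood at 69.6 ppm in Namalwa and 0.0705 in Jiyoye and at 21.4 in BL-41. RAG1, the partner subunit, was low in both lines (1.79 ppm in Namalwa and 1.34 in Jiyoye) and stood at 40.6 ppm in BL-41. RAG2 in BL-41 stood at 21.5 ppm.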
